A study of Mus musculus with 4 samples.

Results

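The promoters described here carried listed peaks in each of the non-SMC lines but lacked any in the SMC lines: 538 of the 21755 protein-coding genes of GENCODE M21 on chromosomes 1 to 19 and X, or 2.47%. They were chosen by the deposited peaks themselves. A gene was a member when the 6 kb window centred on its annotated 5′ end, called the gene start below, overlapped at least 1 listed peak in both non-SMC lists and none in either SMC list. Their openness in the non-SMC lines and their lack of an SMC peak are therefore the rule and not a finding. The reverse pattern, a peak in both SMC lists and in neither non-SMC list, was found at 675 genes (3.1%), and 10693 genes (49.2%) had a window peak in all 4 lists. A further 4024 genes (18.5%) had a peak in no list, and the remaining 5825 (26.8%) had some other combination.

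The assay was ATAC-seq, in which a transposase cuts and tags accessible DNA, on 4 untreated mouse cell lines with 1 library per line. All 4 came from primary lung tumors of the RP mouse model of small cell lung cancer, in which floxed Rb1 and Trp53 are deleted after an adenovirus carrying Cre under the CMV promoter is given through the trachea, on a mixed C57Bl/6, Balb-c and S129 background. SMC lines (SMC 1 and SMC 2) are the NCAM-high, CD44-low or negative tumor cells, which grow in suspension. Non-SMC lines (Non-SMC 1 and Non-SMC 2) are the NCAM-low, CD44-high cells of the tumors, which grow attached, and both kinds were separated by sorting and kept in RPMI1640 with serum. The CMV promoter does not limit Cre to a lung cell type, and each line is a single culture, so differences between lines and differences between types rest on 2 lines of each.

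Open chromatin at a gene start marks a promoter that the transcription machinery and its factors can reach. Promoters rich in CpG dinucleotides are mostly open in all cells, whereas CpG-poor promoters tend to open in particular cell types, often together with enhancers nearby. AP-1, a dimer of Fos and Jun family proteins, RUNX factors and TEAD factors, the DNA-binding partners of YAP and TAZ, are well-known occupants of such enhancers in adherent, mesenchymal and epithelial cells.

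The sequences below surround the summit, the base of highest signal, of the highest Non-SMC 1 window peak at 9 members. Each runs 60 bases to either side and is written on the strand of its gene. The first 6 are from the 25 members with the strongest peaks and carry the AP-1 letters TGAGTCA or TGACTCA, the motif, of 10 counted, whose share most exceeded that at promoters open in all 4 lines. Runx1 and Runx2, transcription factor genes, are shown because AP-1 letters lie in a peak of their windows, for Runx1 well inside the gene. Ankrd1, a target gene of YAP and TAZ, carries the TEAD letters GGAATG. Capitals mark the AP-1 letters in the first 8 sequences and the TEAD letters in the Ankrd1 sequence, and other matches, such as the TEAD letters in the Itgbl1 sequence, are left in lower case. The bases are from the mm10 reference, at chr1:107589934-107590054 (Serpinb8, plus strand), chr5:86630823-86630943 (Tmprss11f, minus strand), chr19:40996108-40996228 (Blnk, minus strand), chr14:123662539-123662659 (Itgbl1, plus strand), chr9:9241290-9241410 (Arhgap42, minus strand), chr11:82116151-82116271 (Ccl8, plus strand), chr16:92823716-92823836 (Runx1, minus strand), chr17:44814903-44815023 (Runx2, minus strand), chr19:36120019-36120139 (Ankrd1, and minus strand).
Serpinb8: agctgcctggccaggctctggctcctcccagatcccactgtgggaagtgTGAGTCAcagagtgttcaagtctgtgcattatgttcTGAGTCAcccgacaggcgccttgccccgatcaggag
Tmprss11f: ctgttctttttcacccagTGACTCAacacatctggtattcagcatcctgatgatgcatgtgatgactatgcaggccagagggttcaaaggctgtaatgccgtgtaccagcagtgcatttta
Blnk: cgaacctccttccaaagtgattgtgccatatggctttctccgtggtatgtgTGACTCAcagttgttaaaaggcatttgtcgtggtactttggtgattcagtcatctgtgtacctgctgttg
Itgbl1: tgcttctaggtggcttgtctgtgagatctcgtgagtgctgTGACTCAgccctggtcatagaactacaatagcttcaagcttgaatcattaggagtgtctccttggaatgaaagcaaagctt
Arhgap42: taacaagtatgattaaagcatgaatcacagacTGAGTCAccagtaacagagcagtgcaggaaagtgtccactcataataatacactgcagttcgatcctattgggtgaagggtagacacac
Ccl8: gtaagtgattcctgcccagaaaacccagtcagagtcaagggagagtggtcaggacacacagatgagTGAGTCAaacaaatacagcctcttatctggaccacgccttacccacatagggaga
Runx1: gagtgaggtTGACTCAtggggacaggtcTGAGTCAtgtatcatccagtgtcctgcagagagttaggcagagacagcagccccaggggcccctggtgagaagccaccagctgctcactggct
Runx2: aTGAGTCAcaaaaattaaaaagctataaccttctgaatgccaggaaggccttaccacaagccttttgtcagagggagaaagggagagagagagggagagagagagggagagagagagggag
Ankrd1: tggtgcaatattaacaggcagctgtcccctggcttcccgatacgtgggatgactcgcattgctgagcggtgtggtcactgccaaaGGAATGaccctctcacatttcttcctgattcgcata
The Serpinb8 and Runx1 sequences each held 2 AP-1 matches, and the other 6 AP-1 sequences held 1 each. Such a match is a string of letters in the reference and not a measured binding site.

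The 4 peak lists differed in depth, which bears on every absence of a peak. They held 91046 (SMC 1), 153950 (SMC 2), 115827 (Non-SMC 1) and 128705 (Non-SMC 2) peaks on the chromosomes used. Read depth was not among the deposited values, and the paper gives total reads by cell type, more for SMC than for non-SMC, but not by library. The pileup and the genome-wide background of each list could be solved from fold enrichment and p-value if the p-value is taken as a Poisson one with a pseudocount of 1. The peak-calling settings are not given in the sources used here, and the depths that follow rest on that assumption. The background was 3.37 times that of SMC 1 in SMC 2, 3.26 times in Non-SMC 1 and 1.40 times in Non-SMC 2. The lowest summit pileup called was 3 reads in SMC 1 and 5 in SMC 2. When the member pileups of both non-SMC lines were scaled to the background of SMC 1, they reached 3 reads in 331 of the 538 (61.5%). For the other 207 members a peak of the same relative height could thus have been missed in SMC 1. Scaled to SMC 2, the member pileups reached its lowest called pileup in 538 of 538. That outcome was fixed beforehand, since the lowest listed pileups were 5 in Non-SMC 1 and 3 in Non-SMC 2 and the SMC 2 background was higher. The lowest pileup in a list need not be called at every place, so missed peaks in SMC 2 are not excluded either. A lower peak cannot tell whether fewer cells were open or each was less often cut.

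The labels were checked at known genes. Epcam and Chga, which mark epithelial and neuroendocrine identity, had window peaks in both SMC lists and in neither non-SMC list. Cd44 had peaks with −log10 q of 50.2 and 29.1 in Non-SMC 1 and Non-SMC 2 and none in SMC 1, but a peak with −log10 q of 1.04 in SMC 2 kept it out of the members. Wwtr1 and Yap1, which encode TAZ and YAP, were kept out in the same way by SMC 2 peaks of −log10 q 1.28 and 1.94. Ncam1 had window peaks in all 4 lists.

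How strong the member peaks were is shown first, because the members ranged from some of the highest peaks in the genome to the weakest listed. Strength is given as the rank of the fold enrichment of a member's highest window peak within its own list, in percent, since fold enrichment depends on depth. The median rank was 65.5 in Non-SMC 1 and 69.9 in Non-SMC 2, lower than the 83.4 and 87.1 of promoters open in all 4 lines. SMC-only promoters had similar medians in their own lists, 64.9 in SMC 1 and 72.9 in SMC 2. Median fold enrichment of the members was 4.84 and 4.25, and median −log10 q was 5.92 and 2.66. The highest peaks of 151 members (28.1%) reached −log10 q of 5 in both lists, and those of 227 (42.2%) reached it in neither. The ranks in the lines had a Spearman correlation of 0.652 over the 538 members, as a description of these 2 lists. A window peak of one non-SMC line overlapped one of the other at 383 members (71.2%), so at 155 members the lines were open at different places in the same window.

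**Figure D1:**
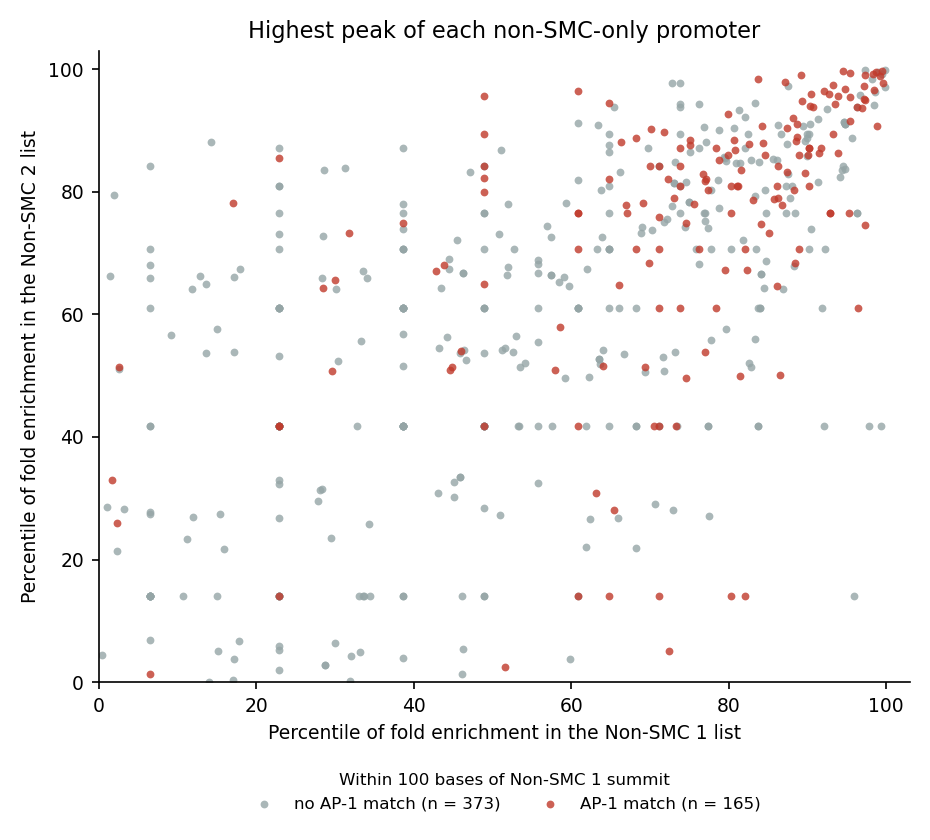
Rank of the fold enrichment of each member's highest window peak in the Non-SMC 1 list (x axis, percent) and the Non-SMC 2 list (y axis, percent), 1 point per promoter. Points with AP-1 letters within 100 bases of the Non-SMC 1 summit (165 of 538) are red and lie mostly in the upper right, where both peaks are strong.

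The strongest member was Ttc23l, a little-studied tetratricopeptide gene, with fold enrichments of 19.9 in Non-SMC 1 and 17.01 in Non-SMC 2, the Non-SMC 1 summit lying at -1601 bases from its start, where negative is upstream. No peak was listed there in SMC 1 or SMC 2, and the nearest SMC peak lay 16527 bases beyond the window. Among the 25 strongest were genes of barrier and secretory epithelia: Clca4a, a relative of calcium-activated chloride channel regulators (17.4 and 15.8), Serpinb8, an intracellular serine protease inhibitor (15.8 and 14.9), and Tmprss11f, a transmembrane serine protease (16.96 and 13.3). Others are best known from immune cells. Blnk, the adaptor protein of B-cell receptor signalling, had fold enrichments of 15.2 and 14.2. Siglece, a sialic acid-binding receptor of myeloid cells, had 14.2 and 9.55, and Ccl8, a chemokine, had 14.1 and 9.59. The member Ankrd1, a muscle ankyrin repeat protein induced by YAP and TAZ, had 15.2 and 12.3 with summits 20 and 23 bases inside the gene, so that the peak covered the start. Map2k6, a kinase upstream of p38, had 15.6 and 9.08, also at its start, and Ifi205, an interferon-inducible gene, had 16.3 and 14.8. Trim68, a ubiquitin ligase gene, was 1 of only 2 CpG-rich promoters in these 25, with 14.1 and 17.2, and Arhgap42, a GTPase-activating protein, was the other, with 12.6 and 14.6. The rest of the 25 were Pate1, Vmn1r40, Gm3776, Rab7b, Itgbl1, Klra2, Olfr432, Ubd, Olfr1390, Hsp90aa1, Dhrs9, Dnajc5b and Fam160a1. In these 25 the −log10 q was at least 29.6 in Non-SMC 1 and at least 11.7 in Non-SMC 2.

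At the other end, Pik3r6, Pkd1l2, Bpifa5, Nfyc and Arhgdig were the weakest members, with fold enrichments of 2.15 to 2.77 in Non-SMC 1 and 2.20 to 2.44 in Non-SMC 2, and the peaks of the lines did not overlap at any of them. The border with the SMC lists was as narrow. Atp13a4, Ubd, Notch1, Trpm6 and Gm15557 were members although an SMC peak lay 5, 15, 43, 52 and 55 bases beyond the window. Just outside the rule, Col7a1, Ephb4, Hyal1 and Fstl1 had strong peaks in both non-SMC lists and a single SMC 2 peak with −log10 q of 0.197, 0.202, 0.215 and 0.260. Prr5l was excluded by a single SMC 1 peak with −log10 q of 0.204. In all, 219 promoters with −log10 q of at least 5 in both non-SMC lists were kept out by a single SMC peak. Over all members the nearest SMC peak lay a median of 4389.5 bases beyond the window edge, and 46 members had none within 50 kb.

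The open site was seldom at the gene start itself. A Non-SMC 1 window peak covered the annotated start in 149 members (27.7%, Wilson 95% interval 24.1 to 31.6), and a Non-SMC 2 peak in 131 (24.3%, 20.9 to 28.1). In promoters open in all 4 lines these shares were 75.9% and 69.0%. At SMC-only promoters a peak covered the start in 29.3% in SMC 1 and 37.9% in SMC 2. Where promoters of any other combination had a non-SMC peak, the shares were 29.8% in Non-SMC 1 and 22.8% in Non-SMC 2. A peak away from the start was therefore not particular to the members. The Non-SMC 1 summit lay within 500 bases of the start in 193 members, farther upstream in 153 and farther downstream in 192. By annotation, 107 summits were in exons, 197 in introns and 234 between genes, and 264 were inside the member gene. The highest peak covered no annotated transcript start of any gene in 376 members (69.9%), and in 16 it covered a start of another gene and none of the member. Strong members with the peak over their start included Pate1, named for its expression in prostate and testis, Serpinb8, Klra2, a Ly49 family receptor, Dhrs9, a retinol dehydrogenase, and Pla2g4a, the cytosolic phospholipase that releases arachidonic acid (8.74 and 7.86).

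**Figure D2:**
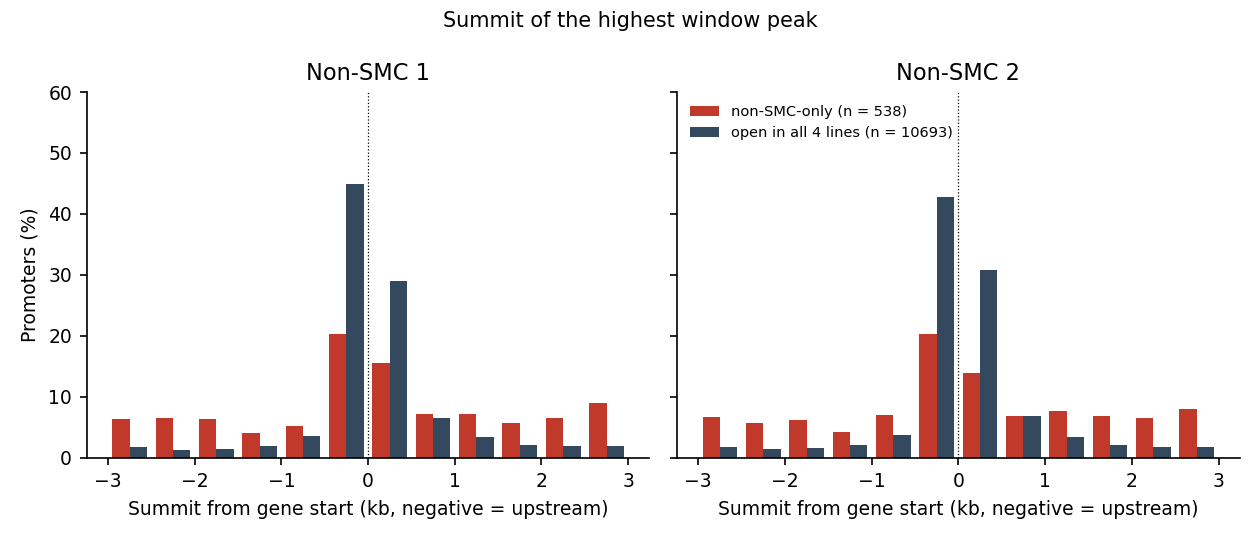
Position of the summit of the highest window peak relative to the gene start, in bins of 500 bases (x axis in kb, negative is upstream; y axis percent of promoters), for the 538 members and the 10693 promoters open in all 4 lines, in both non-SMC lists. The members are spread over the window, while promoters open in all 4 lines crowd at the start; summits outside the window (23 and 17 members) are counted in the outermost bins.

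Some member genes have other annotated starts far from the 5′ end used here, and which starts are transcribed was not measured. Another annotated start lay more than 3 kb away in 140 members. At 86 of the 140 such a start had a peak in at least 1 SMC list. At 37 members (6.88%) such a start had a peak in all 4 lists. These included Hsp90aa1, the stress-inducible cytosolic HSP90, Phldb2, a cortical microtubule-anchoring protein, Med15, a Mediator subunit, Por, the electron donor of cytochrome P450 enzymes, Runx1, Runx2, Src, Rara and Nr2f2. In these genes the difference between types concerned one start and its surroundings and not the gene as a whole. Hsp90aa1 had fold enrichments of 12.2 and 10.8 at a site 524 bases upstream of the outer start, and Phldb2 ranked 94.8 on average. AP-1 letters were found at the Non-SMC 1 summit of 22 of the 37.

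The member gene starts were poor in CpG. Counting a start as CpG-rich when the 500 bases to either side had at least 50% GC and a CpG content of at least 0.6 of that predicted from base composition, 73 members were CpG-rich (13.6%, Wilson 95% interval 10.9 to 16.7). The share was 44.8% over all genes, 74.3% where all 4 lines were open, 27.4% (24.2 to 30.9) at the SMC-only promoters and 3.11% where none was. Median GC of the members was 49.2% and the median CpG ratio 0.262. CpG-rich members included Fzd2, a Wnt receptor, Ptpn14, a phosphatase that binds YAP, H2-K1, a class I MHC gene, and Sfrp1, a secreted Wnt inhibitor. This share followed the rule for a peak closely. With peaks of −log10 q of at least 5, 1162 promoters (5.34%) were non-SMC-only and 51.2% of them were CpG-rich. Of the 1162, 741 had a peak in all 4 lists when weaker peaks were counted too. With 1 kb windows the share was 31.3%. Only 151 of the 1162 (12.99%) were among the 538, and these 151 were 28.1% of the members.

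AP-1 letters were common in the member peaks. Within 100 bases of the Non-SMC 1 summit, TGAGTCA or TGACTCA was found in 165 members (30.7%, Wilson 95% interval 26.9 to 34.7), and at the Non-SMC 2 summit in 142 (26.4%). In promoters open in all 4 lines the shares at the same lines' summits were 7.15% and 6.31%, and at SMC-only promoters 17 of 675 (2.52%) had the letters at the SMC 1 summit. These letters were frequent in the non-SMC lists as a whole, in 23.4% and 18.1% of all listed peaks against 4.58% and 4.84% of all SMC 1 and SMC 2 peaks. Regions more than 3 kb from any gene start that were open in the non-SMC lines alone had them more often still, 48.0% of 24239 regions at the Non-SMC 1 summit. The members thus lay between promoters and distal regions.

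Because AP-1 letters were rarer in CpG-rich sequence and close to gene starts, the members were also set beside promoters of the same kind. Among CpG-poor promoters with the Non-SMC 1 summit more than 500 bases from the start, 116 of 307 members (37.8%, 32.5 to 43.3) had the letters, against 15.6% of 1228 promoters open in all 4 lines. Among CpG-poor promoters with the summit within 500 bases, 38 of 158 members (24.1%, 18.1 to 31.3) had them, against 6.43% of 1523. Promoters of any other combination with a Non-SMC 1 peak lay between, at 19.2% of 1310 far from the start and 11.2% of 672 near it. The share rose with strength among the members, from 10.2% of the weakest 137 to 50.4% of the strongest 135, and 16 of the 25 strongest had them. It was 36.0% where the peaks of the lines overlapped and 17.4% where they did not.

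The other motifs exceeded the promoters open in all 4 lines by less, or were rarer. RUNX letters, TGTGGT or TGCGGT, lay at 28.4% of the member summits in Non-SMC 1, against 17.3% of promoters open in all 4 lines and 25.3% of all Non-SMC 1 peaks. TEAD letters lay at 13.8%, against 8.63% and 15.0%. The ETS letters CCGGAAG, which belong to many CpG-rich promoters, lay at 3.16% of the member summits and 15.1% of those open in all 4 lines. The E-box CAGCTG lay at 13.6% of the member summits and at 18.1% of SMC-only promoters in SMC 1. The cyclic AMP response element TGACGTCA was at 0 of 538, which allows a share of up to 0.709% by the same interval, and at 2.63% of promoters open in all 4 lines. The SOX letters ACAAAG or ACAATG lay at 19.9% of the member summits, against 11.7% of promoters open in all 4 lines. They lay at 24.8% of all Non-SMC 1 peaks and at 20.1% of SMC-only promoters in SMC 1, so the members did not stand out. The ISRE core (13 members, 2.42%), the CArG box (3 members) and the NF-kB letters (1 member) were rare.

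**Figure D3:**
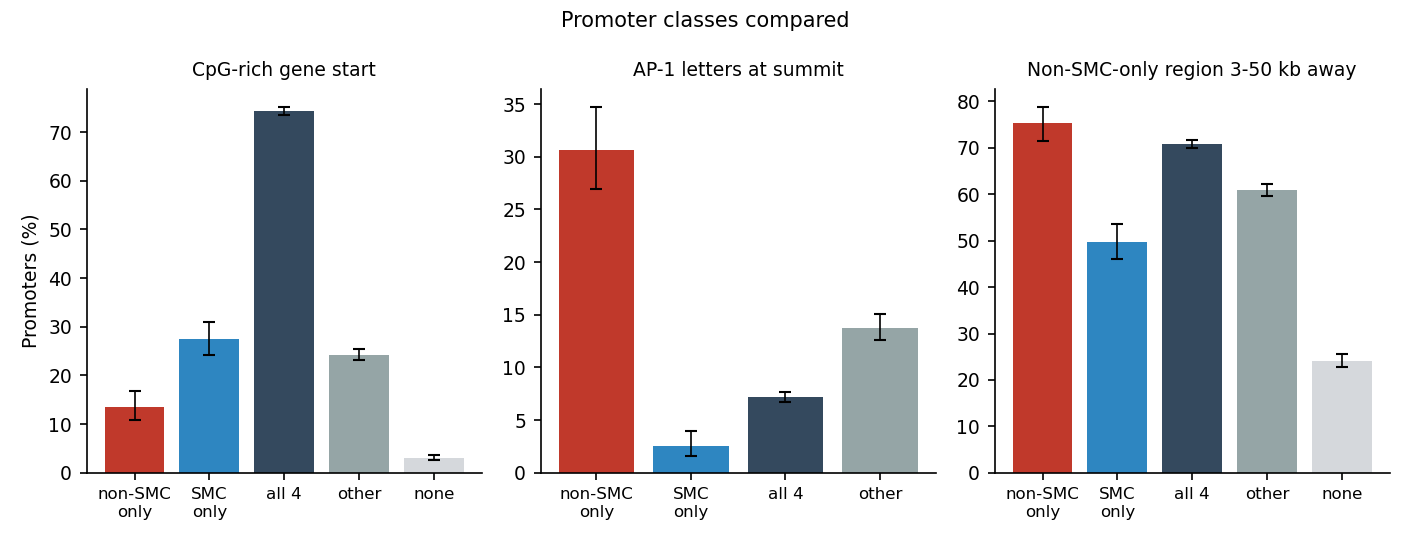
Share of promoters (y axis, percent) with a CpG-rich start (left), with AP-1 letters within 100 bases of the summit (middle, SMC 1 summits for SMC-only and Non-SMC 1 summits otherwise) and with a non-SMC-only region 3 to 50 kb from the start (right), by class, where other is any mixed combination and none is no peak. Bars are shares with Wilson 95% intervals; the members have 13.6%, 30.7% and 75.3%.

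Distal regions around the members were counted next. Between 3 and 50 kb from the gene start, 405 members (75.3%, Wilson 95% interval 71.5 to 78.7) had at least 1 region with a peak in both non-SMC lists and in neither SMC list, with a mean of 1.91 such regions. The share was 59.0% over all genes, with a mean of 1.26, and 49.8% at SMC-only promoters. It was 70.8% where all 4 lines were open, so this difference was small. Regions of the opposite kind, open in the SMC lines alone, lay near 36.8% of the members, 42.3% of all genes and 53.9% of SMC-only promoters. Counting every listed peak at that distance, the members had a mean of 4.76 in SMC 1, 7.26 in SMC 2, 7.62 in Non-SMC 1 and 7.58 in Non-SMC 2, so SMC 2 had nearly as many peaks around them as the non-SMC lines. These values rest on the same 4 lists as the rule, and are a description.

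By gene class the members are counted in lists of genes with a shared role, each beside the 2.47% of all genes. The same lists were also counted with peaks of −log10 q of at least 5 alone, by which 5.34% of all genes were non-SMC-only and 1.64% SMC-only. Among matrix proteins other than collagens and laminins, 9 of 51 (17.6%) were members and 1 was SMC-only. By the stricter peaks 9 were non-SMC-only, but only 4 of these were members, namely Nid1, Fmod, Spp1 and Emilin1. Nid1, which links laminin and collagen networks, had fold enrichments of 12.1 in Non-SMC 1 and 6.10 in Non-SMC 2 at the same intronic site. Fmod, a collagen-binding proteoglycan, had 9.07 and 6.89, and Spp1, or osteopontin, had 7.52 and 6.10 at different sites. Tnc, the matricellular protein tenascin C, was open over its start with 8.33 and 4.18. Emilin1, Loxl1, Mfap5, Efemp2 and Postn were the others, and Postn, or periostin, had peaks at different places, with 14.6 in Non-SMC 1 and 3.05 in Non-SMC 2. None of 44 collagen genes was a member, and 16 of them were open in all 4 lines, but 8 were non-SMC-only by the stricter peaks. Of matrix proteases and their inhibitors 10 of 143 (6.99%) were members, among them the stromelysin Mmp3, the collagenase Mmp1b, Adam12 and Adamts12, beside 4.20% that were SMC-only. By the stricter peaks 10 of the 143 were non-SMC-only, beside 5.34% of all genes, and Serpinb8 was the only member among these.

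Lists of signalling molecules were unequal. Of cytokines and chemokines 12 of 102 (11.8%) were members and 2 were SMC-only. Ccl8 was the strongest, followed by Ccl7 (9.25 and 5.22), which attracts monocytes as Ccl2 does, Ccl5 (6.24 and 6.83), the TNF family ligands Tnfsf18 and Tnfsf8, and Ccl9, Ccl2 and Il1f9. Their receptors counted 8 of 93 (8.602%): Il2rb, the shared beta chain of the interleukin 2 and 15 receptors (10.3 and 8.92), Osmr, the oncostatin M receptor (6.51 and 7.68), Il7r, Il13ra2, Lifr, Ccr3, Il18rap and Ccr1. Osmr and Lifr both signal through gp130, and both were open within 2 kb of their starts. Among growth factor ligands 7 of 61 (11.5%) were members and 5 (8.20%) were SMC-only. The members were Angpt4, Vegfd, Ereg, Fgf23, Vegfb, Ntf5 and Hgf, of which Angpt4, an angiopoietin (9.15 and 11.2), and Vegfd, a lymphatic growth factor (10.7 and 6.71), were strong and Hgf was weak (2.41 and 3.05, at different sites). Receptor tyrosine kinases (1 of 53, 1.89%), semaphorins, ephrins and guidance receptors (1 of 57, 1.75%) and the TGF-beta and BMP list (0 of 54) had few members. Such small counts cannot be told from the share of all genes. By the stricter peaks 8, 4 and 4 genes of these lists were non-SMC-only, beside 5.34% of all genes. Interferon-induced and innate sensor genes counted 8 of 112 (7.14%): Ifi205, Ifi204, Casp4, Casp12, Gbp2, Ddx58, Oasl2 and Ifit3b. Casp4, which encodes an inflammatory caspase, had 5.63 and 6.10 at its start, with the nearest SMC peak 314973 bases beyond the window, farther than for any other member. When a library was left out, which raised the total to between 891 and 1489 genes, the non-SMC-only counts were 15 to 24 for cytokines and chemokines, 9 to 16 for their receptors, 7 to 13 for growth factors and 12 to 15 for interferon-induced genes. With 1 kb windows they were 7, 5, 6 and 7. By the stricter peaks they were 13, 9, 10 and 9, beside 5.34% of all genes, and 4, 3, 3 and 3 of these were members.

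The RUNX genes were members, with very unequal strength, under the rule as stated. In the list of RUNX, TEAD and SMAD genes 3 of 16 were members, and 11 were open in all 4 lines. The 3 became 0 when every transcript start was used and 1 with 2 kb or 1 kb windows, while 6 genes of the list were non-SMC-only by the stricter peaks. The highest peak at the Runx2 start, 166 bases upstream, had a fold enrichment of 12.5 in Non-SMC 1, while in Non-SMC 2 the highest window peak was a different one with 4.88. Runx1 had 6.26 and 7.10 about 2.4 kb inside the gene, with an SMC 2 peak 185 bases beyond the window. Runx3 was weak (2.73 and 2.54), and its peaks did not overlap. Both Runx1 and Runx2 have other annotated starts that were open in all 4 lines. No gene of the Hippo pathway list (26 genes), the AP-1 and MAF list (18), the list of mesenchymal transcription factors (30) or the TGF-beta and BMP list (54) was a member. Of these lists 61.5%, 88.9%, 53.3% and 59.3% were open in all 4 lines. These counts of 0 depended on the weak peaks, since 7, 4, 4 and 4 genes were non-SMC-only by the stricter peaks. Of 24 YAP and TAZ target genes, 14 were open in all 4 lines and 2, Ankrd1 and Ptpn14, were members, with 6 by the stricter peaks.

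Epidermal genes were counted in a list of their own. Of keratins, keratin-associated proteins, cornified envelope proteins and S100 proteins, 16 of 174 (9.20%) were members and 7 (4.02%) SMC-only. By the stricter peaks 13 were non-SMC-only, beside 5.34% of all genes, and 6 of these 13 were members. In 1 kb or 2 kb windows 8 were non-SMC-only, and 17 to 30 when a library was left out. The strongest member was S100a2, a calcium-binding protein of basal epithelia (10.1 in both lines, at different sites, with summits at -3109 and -2370 bases), followed by Krtap1-4 and Krtap1-5, which share a single peak (12.1 and 7.97). S100a11 (10.0 and 6.47, also at different sites), Lce1d, Krtap3-2, Krtap2-4 and Tgm1, the transglutaminase that crosslinks the cornified envelope (6.54 and 5.57), came next. Cldn4 and Cldn10 were the 2 members among 78 epithelial junction genes, of which 8 (10.3%) were SMC-only. Of 31 neuroendocrine and neural factors and 32 neuroendocrine secretory and synaptic genes none was a member, while 4 and 3 were SMC-only. Protocadherins and cadherins counted 7 of 92 in either direction (7.61%), and the member peaks there were weak, with ranks of 10.3 to 54.98 on average.

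Receptor genes that are silent in most cells made up a large family. Of odorant and pheromone receptors 22 of 1484 were members, or 1.48%, below the share of all genes, while 6 (0.404%) were SMC-only and 1251 had no peak in any list. The receptor share rose above that of all genes without Non-SMC 1, where 86 of the 1484 were non-SMC-only, among 1126 of all 21755 genes. It stayed below when another library was left out or the windows were 1 kb. The counts were then 55 among 920 genes without Non-SMC 2, 35 among 1489 without SMC 2 and 23 among 891 without SMC 1. With 1 kb windows the count was 5 among 479. Vmn1r40 (18.4 and 11.6), Olfr432 (14.03 and 11.2) and Olfr1390 (13.5 and 10.1) were among the 25 strongest. At Vmn1r40 and Olfr1390 the peak did not cover the receptor's start. Of C-type lectins and related receptors 6 of 105 (5.71%) were members, led by Klra2 (15.7 and 10.4) and Siglece. By the stricter peaks 8 of the 105 were non-SMC-only, beside 5.34% of all genes. Solute carriers (13 of 375, 3.47%), ion channels (7 of 195, 3.59%), G protein-coupled receptors other than odorant receptors (8 of 236, 3.39%), zinc finger genes (10 of 391, 2.56%) and predicted genes (53 of 1993, 2.66%) lay close to the share of all genes.

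Markers of cells that tumor cultures might hold were counted beside these. Of 15 fibroblast and pericyte markers 3 were members, namely Fap, Postn and Acta2, and 8 had window peaks in each of the non-SMC lists, against 3 in SMC 1 and 5 in SMC 2. Acta2, smooth muscle actin, had 6.00 in Non-SMC 1 and 3.05 in Non-SMC 2 at its start. Of 20 leukocyte markers 2 were members, Laptm5 and Fcer1g, and 0, 9, 8 and 11 had window peaks in SMC 1, SMC 2, Non-SMC 1 and Non-SMC 2. Ptprc, the pan-leukocyte gene that encodes CD45, had a window peak in Non-SMC 1 alone, and Cd3e had none in any list. Cd68, a macrophage marker, had window peaks in SMC 2 and in both non-SMC lists, and the fibroblast marker Col1a1 had them in all 4 lists. The endothelial marker Cdh5 had them in every list but Non-SMC 1, and the alveolar marker Sftpc in SMC 1 alone. Pecam1 was the member among 14 endothelial markers, and Cyp2f2, an enzyme of club cells, among 22 airway and alveolar markers. The part of other cells in the peaks was not tested.

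**Figure D4:**
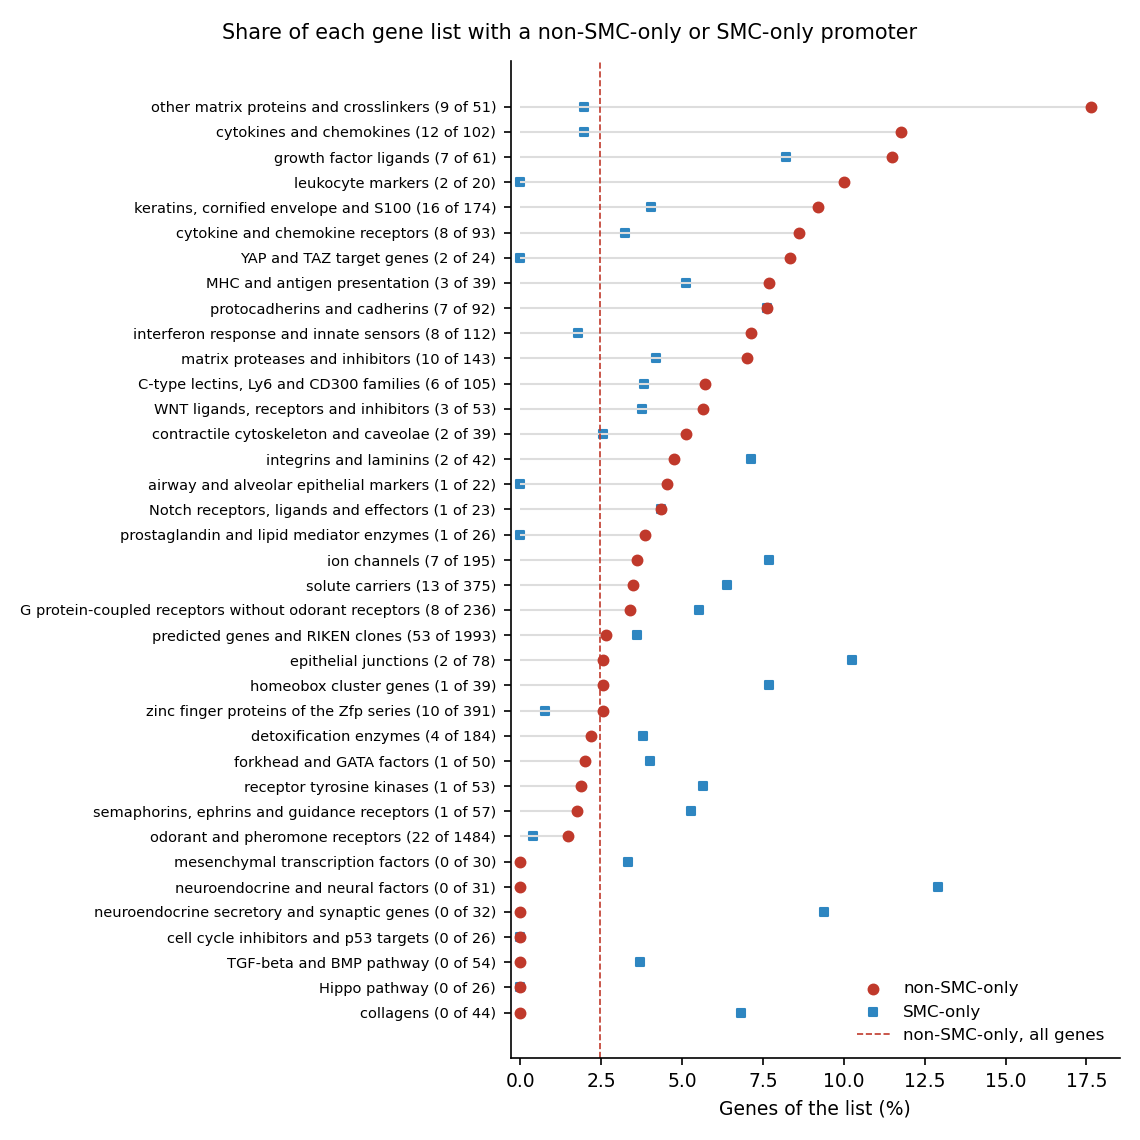
Share of each gene list with at least 20 genes (x axis, percent) that was non-SMC-only (red circles) or SMC-only (blue squares), with the counts of non-SMC-only genes at the left and the 2.47% of all genes as a dashed line. Matrix proteins (17.6%) and cytokines and chemokines (11.8%) lie farthest to the right, and 7 lists have no member.

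The members also lay together along the chromosomes. Of the 538, 113 had another member start within 100 kb, in 46 runs, and 13 runs held 3 or more genes, 47 genes in all. For SMC-only promoters 97 of 675 were in 45 runs, of which 6 held 3 or more. Neighbours can share a peak: the 538 windows merged into 519 loci, and the highest peaks made 521 distinct pairs of sites.

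The longest run, 102.107 kb on chromosome 11 (mm10, starts from 99556853 to 99658960), held Krtap3-2, Krtap1-5, Krtap1-4, Krtap2-4, Krtap4-1 and Gm11563, 6 of the 16 genes there. From 3 kb before to 3 kb after it, Non-SMC 1 had 13 peak summits, Non-SMC 2 had 12, SMC 2 had 4 and SMC 1 had 0. The chemokine run on the same chromosome (82035571 to 82115185) held Ccl2, Gm17268, Ccl7, Ccl12 and Ccl8. It left out only Ccl11, which had an SMC 1 peak and no Non-SMC 1 peak in its window. The chemokine run had 13 summits in each non-SMC line, 2 in SMC 1 and 0 in SMC 2. The class I run on chromosome 17 (36032855 to 36121678) held all 5 of its genes, H2-T23, H2-T22, Gm6034, Gm11127 and Gm19684, with 10 and 11 summits in the non-SMC lines and 1 and 2 in the SMC lines. H2-T22 and H2-T23 encode nonclassical class I molecules, and their peaks were moderate (8.12 and 3.97 at H2-T22, 3.22 and 3.66 at different sites of H2-T23).

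Neither SMC line had a summit in the runs of Aspa with Gm49340 and Spata22, Evi2b with Evi2 and Evi2a, and Ifi205 with Olfr433 and Olfr432. The starts of the Aspa run lie within 0.145 kb of each other and share their highest peak. Further runs were Vps52, Rps18 and H2-K1, the cornified envelope genes Lce1a1, Lce1d and Lce1f, the beta-defensin locus genes Defb28, Gm17416 and Defb36, Rimklb with Mfap5 and Apobec1, Ubd with Olfr96 and Olfr102, and the protocadherins Pcdhga5, Pcdhga6, Pcdhgb6 and Pcdhgc5. In the defensin run SMC 2 had 10 summits, as against 8 and 9 in the non-SMC lines, so this locus was open in that SMC line outside the member windows. The protocadherin run had 7 summits in each SMC line, as against 12 in each non-SMC line. In the Vps52 run SMC 1 had 4 and SMC 2 had 5, as against 6 in Non-SMC 1 and 10 in Non-SMC 2.

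**Figure D5:**
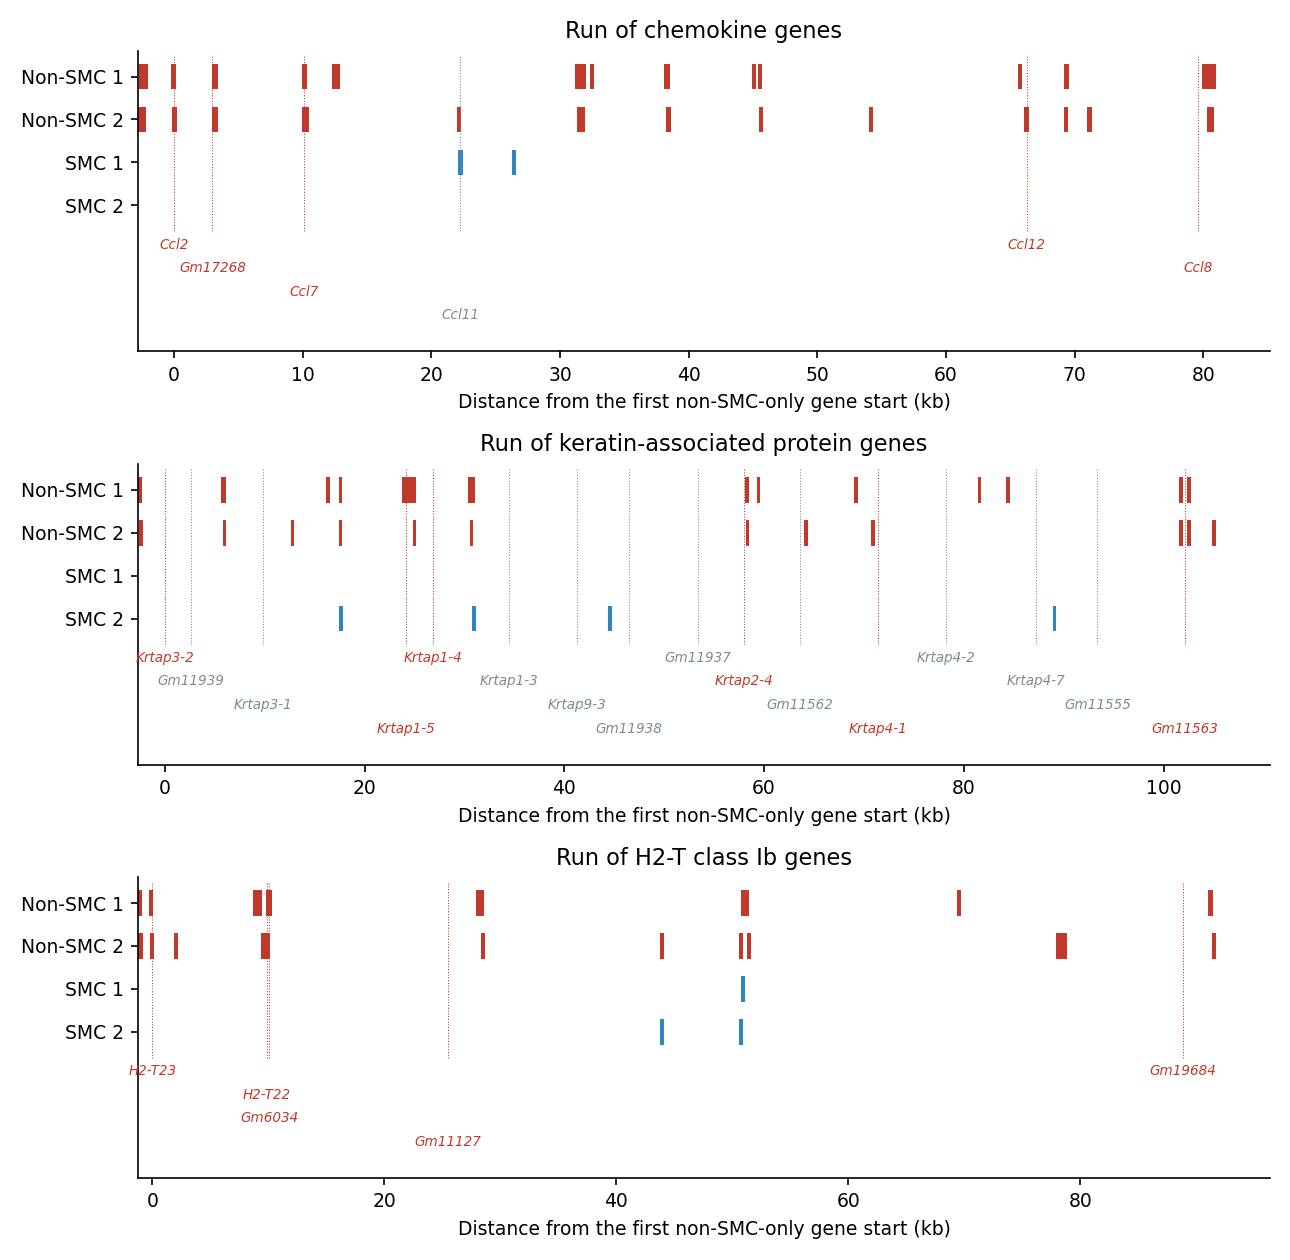
Listed peaks of the 4 lines in the chemokine, keratin-associated protein and class I runs, by distance from the leftmost member start (x axis, kb); bars are peaks, widened to at least 0.35 kb for visibility, red in non-SMC and blue in SMC lines. Dotted lines are gene starts, with member genes in red and others in grey; the SMC lines have 0 to 4 peaks in each run and the non-SMC lines 10 to 13.

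The members were unevenly spread over the chromosomes. Chromosome 1 had the highest share of its genes among the members, 4.14%, followed by 19 (3.76%) and 11 (3.72%). Chromosomes 12 (0.622%, 4 genes), 10 (0.686%, 7 genes) and X (1.05%, 10 genes) had the lowest. Chromosomes 12 and 10 had the highest shares of SMC-only promoters, 5.13% and 5.00%. The peak lists as a whole were uneven in the same sense, as chromosome 12 held 2.41% and 2.95% of the Non-SMC 1 and Non-SMC 2 peaks but 4.15% and 4.26% of the SMC 1 and SMC 2 peaks. On chromosome 10 these shares were 3.36% and 3.33% against 4.61% and 5.06%. Chromosome X did not follow this, with 4.20% of the SMC 1 peaks and 1.29% of the SMC 2 peaks, beside 2.43% and 2.08% in the non-SMC lines. The part of this unevenness in the member counts was not tested.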

How the data were processed

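Per the labels and the study's methods, the authors aligned ATAC-seq reads of 4 mouse lines to mm10 with Bowtie2 2.3.4 and called peaks in each library with MACS2 2.1.1; each deposited narrowPeak list gives a peak's interval, a display score, fold enrichment (a ratio over local background), and −log10 p and −log10 q. Every listed peak had p below 0.01, so weak peaks are in the lists, and replicates were not pooled. No read counts were used, so pileups were solved from fold enrichment and p as a Poisson p with a pseudocount of 1, an assumption, since the peak-calling settings are not given in the sources used here.

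Lists were overlapped with 6 kb windows around GENCODE M21 gene starts (minimum 1 base) with Python 3.11.15, pandas 2.3.3 and pysam 0.24.0, and checked with bedtools 2.31.1. Intervals are Wilson 95% and cover counting of promoters only. No test was run, since the members were selected on the peaks and there are 2 lines per type. Motifs (10 in all: AP-1, CRE, TEAD, RUNX, ETS, NF-kB, E-box, SOX, ISRE core and CArG box) were searched on both strands of the reference. The members and the 42 gene lists were chosen with earlier results of these data known, and the cytokine list was corrected afterwards because its name pattern took in the receptor gene Il7r. Genes named are the 25 strongest and 5 weakest members, the members of each list (at most the 8 strongest), runs of 3 or more, and the 5 nearest cases on either side of the rule. One run of 3 genes is not reported here. Genes named outside these, such as those with another start open in all 4 lines and CpG-rich examples, were chosen after their values were seen. Alternatives were peak thresholds, window widths, all transcript starts, overlap rules, motif and CpG windows, joining and distal distances, and leaving out each library.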

Additional observations from a re-analysis of the deposited data

How the results depend on the processing

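No paired analysis was possible because no test was run: the lines share numbers 1 and 2, but the members are a count from peak lists. The 538 genes depended on all 4 lists, with 891 to 1489 when a library was left out, the most without SMC 2 and 891 without SMC 1 (1126 without Non-SMC 1, 920 without Non-SMC 2). Without a library the SMC-only count was 1044 to 1500, the share with a shared site 71.4 to 73.1% (for an SMC library left out, since it needs both non-SMC lists), the median rank 52.0 to 65.6, peaks over the start 17.2 to 35.7%, AP-1 letters 18.7 to 26.5%, CpG-rich starts 10.7 to 30.4%, genes in runs 235 to 552, and a distal non-SMC-only region nearby 78.5 to 93.96%.

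With peaks of −log10 q of at least 5 there were 1162 non-SMC-only and 357 SMC-only promoters, so the order of the counts turned. The other values were then 96.6% with a shared site, a median rank of 39.5 within the shorter lists, 56.02% over the start, 26.1% with AP-1 letters, 51.2% CpG-rich, 423 genes in runs and 63.2% with a distal region. With each list limited to its 91046 best peaks by p 82.1% had a shared site, 31.9% a peak over the start and 18.6% a CpG-rich start. With 2 kb windows these were 85.6%, 45.8% and 24.8%, and AP-1 letters 22.9%; with 1 kb windows they were 92.7%, 56.4%, 31.3% and 20.5%. Requiring that the non-SMC peaks overlap gave by construction 100% with a shared site, and a median rank of 76.2, 34.7% over the start, 36.0% with AP-1 letters and 72 genes in runs. A reciprocal overlap of 50% gave 47.8% with a shared site. AP-1 letters were at 21.6% within 50 bases, 37.0% within 250 bases and 26.4% at the Non-SMC 2 summit. CpG-rich starts were 17.1% over 250 bases to either side. A distal region was found within 20 kb of 45.2% and within 100 kb of 89.96%. All transcript starts (486 genes), autosomes alone (528) and a 100-base overlap (549) left these promoter-level values within their limits, but with all transcript starts no RUNX, TEAD or SMAD gene remained of 3, and 28 odorant and pheromone receptors were counted in place of 22. Among other lists, matrix proteins were 10 to 15 and proteases 15 to 19 without a library. The cause of the larger shifts was not tested beyond the construction of each setting. Depth limits the absences, above all in SMC 1, and 2 lines per type do not measure how much such lines vary.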
